A study of Mus musculus with 4 samples.

Results

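Mitotic hematopoietic stem and progenitor cells (HSPCs) of young and aged mice were taken from 4 single-cell libraries and are described here by their genes, their lineage marks and their age differences. The cells were chosen by their own RNA. In each library, cells were kept when the log of their total UMI count (unique molecular identifier, 1 per captured transcript) lay within 2 SD of the mean of the library, and a kept cell was called mitotic when it held at least 1 UMI for 5 or more of the 10 genes Hmmr, Ube2c, Cdc20, Cenpf, Cenpa, Birc5, Top2a, Nusap1, Tpx2 and Aurka. This rule took 1222 of 14915 kept cells (8.19%; exact 95% interval 7.76 to 8.64%, counting error only) out of 15566 barcodes.

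All mice were male C57BL/6-CD45.2 animals without a transgene or treatment. Bone marrow was depleted of lineage-positive cells and sorted as Lin- Sca1+ cKit+ Flt3- cells, so that long- and short-term hematopoietic stem cells (HSCs) and the early multipotent progenitors were included, while the Flt3+ progenitors were gated out. The young pools (2 to 3 months) held 2 mice (young A) and 3 mice (young B), and the aged pools (17 to 18 months) held 3 mice (aged A) and 2 mice (aged B). Each pool is 1 library and 1 replicate, the animals within a pool cannot be separated, and the letter names the facility where capture and sequencing were done. The free-text descriptions of young B and aged A give the opposite age to their titles and source names, and the latter were followed here. The numbers of cells that the study's text gives for its young and aged pools after filtering equal the kept cells of the pools as titled.

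A cell that divides passes through G1, copies its DNA in S phase, and then in G2 builds up the proteins that condense and separate the chromosomes in mitosis. Cyclin B with its kinase Cdk1 starts mitosis, the kinetochore and spindle proteins move the chromosomes, and the anaphase-promoting complex with Cdc20 ends it by marking cyclin B for destruction. The genes for these proteins are transcribed together late in the cycle, through CHR (cell cycle genes homology region) and CCAAT elements in their promoters, while many S phase genes are driven by E2F factors at an earlier time. HSCs are mostly quiescent and divide rarely, whereas the progenitors derived from them divide often.

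The late-cycle program can be read in the promoters of the genes that chose these cells. RefSeq promoter windows (250 bases before to 50 bases after the transcription start, GRCm38.p6) were found for 9 of the 10 rule genes, all but Tpx2. The letters searched on both strands were TTTGAA for the CHR, CCAAT for the site of NF-Y and TTCCCGC for an E2F site, and no match of one in the stretches below overlaps a match of another. The stretches below end before the first transcribed base, run 5′ to 3′ on the strand of the gene, and have matched letters in capitals. Top2a (a topoisomerase that untangles sister chromatids) and Cdc20 are rule genes, Cdk1 and Mki67 (a protein coating mitotic chromosomes) are late-cycle genes outside the rule, and Uhrf1 (which maintains DNA methylation at the replication fork) is shown as an S phase gene for contrast. The stretches were picked for holding these letters. Stretches cut the same way for Ccnb1, Ccnb2 and Ube2c held no CHR letters (those of Ube2c lie past the end of its stretch, nearer the RefSeq start), and those of the S phase genes Cdc45, Cdc6, Dtl, Mcm3, Mcm5, Mcm6, Mcm10 and Rrm2, and of a second start of Uhrf1, held no E2F letters.

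Top2a, chr11:99024190-99024309, minus strand: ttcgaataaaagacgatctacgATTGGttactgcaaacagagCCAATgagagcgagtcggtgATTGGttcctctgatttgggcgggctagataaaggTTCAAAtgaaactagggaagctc
Cdc20, chr4:118437353-118437472, minus strand: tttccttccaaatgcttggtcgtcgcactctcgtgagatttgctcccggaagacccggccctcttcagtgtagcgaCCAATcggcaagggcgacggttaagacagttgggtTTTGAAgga
Cdk1, chr10:69352939-69353058, minus strand: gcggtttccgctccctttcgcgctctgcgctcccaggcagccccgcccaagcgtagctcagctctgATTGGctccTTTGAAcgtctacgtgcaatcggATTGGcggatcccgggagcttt
Mki67, chr7:135716380-135716499, minus strand: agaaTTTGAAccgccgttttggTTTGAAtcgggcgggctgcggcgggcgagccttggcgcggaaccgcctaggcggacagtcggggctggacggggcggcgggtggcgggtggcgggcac
Uhrf1, chr17:56303201-56303320, plus strand: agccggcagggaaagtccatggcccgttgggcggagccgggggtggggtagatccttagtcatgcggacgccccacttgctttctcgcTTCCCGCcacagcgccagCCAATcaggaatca

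CHR letters stood in the windows of 7 of the 9 rule genes, against 17.9% of all 32851 mouse windows. CCAAT letters stood in 7 of 9, against 37.4% of all windows, and the same 7 genes carried both. The E2F letters stood in none of the 9, against 4.6% of all windows. Beyond the rule, 65 of 86 other gene symbols listed for mitosis matched 72 windows, of which 63.9% held CHR letters, 73.6% CCAAT letters and 8.33% E2F letters. In the 34 windows of 29 S phase genes the shares were 8.82% for the CHR, 55.9% for CCAAT and 38.2% for E2F. The CHR letters of Cdc20, Ube2c and Top2a lay 18, 29 and 23 bases before the start, and those of Cenpf, Hmmr, Cenpa and Aurka lay at bases 3, 9, 17 and 33 after it. Birc5 and Nusap1 held neither in their windows. These are matches of letters, which do not show that a factor was bound.

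**Figure D1:**
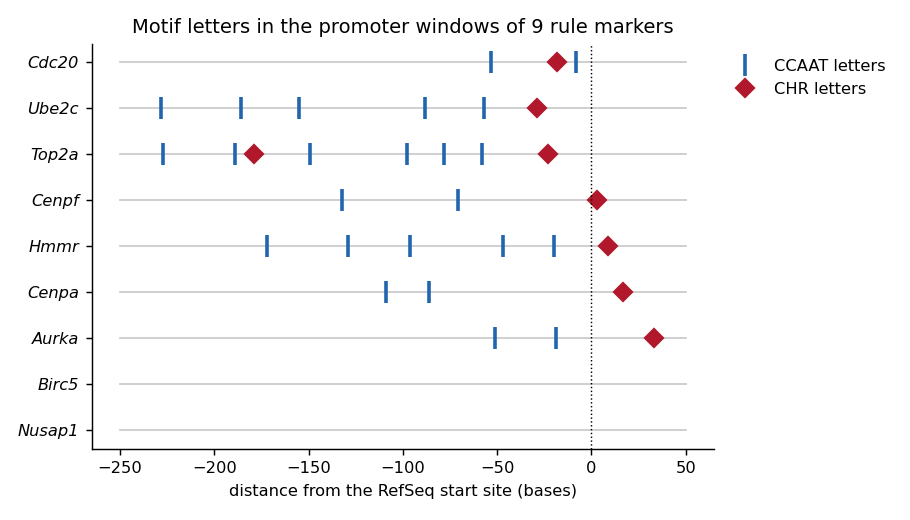
Position of CHR letters (red diamonds) and CCAAT letters (blue ticks) in the promoter windows of 9 rule genes, as distance in bases from the RefSeq start site (dotted line). The CHR letters nearest the start lie between 29 bases before and 33 bases after it in 7 genes, each with CCAAT letters upstream (in Cdc20 also downstream of the CHR), and Birc5 and Nusap1 hold neither.

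The number of rule genes per cell fell and then rose again. Of the kept cells, 8291 held none of the 10 genes and 3754 held 1, the number fell to 134 cells with 6, and it rose again to 395 cells with all 10. Cells with all 10 genes made up 32.3% of the mitotic cells. Just inside the threshold were 165 cells with 5 genes (median 11318 UMIs) and just outside it 202 cells with 4 (median 10869.5 UMIs). Cells with all 10 genes made up 3.39% of the kept cells of young A, 2.94% of young B and 2.91% of aged B, and in aged A the share rose from 0.541% at 7 genes to 0.962% at both 9 and 10.

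**Figure D2:**
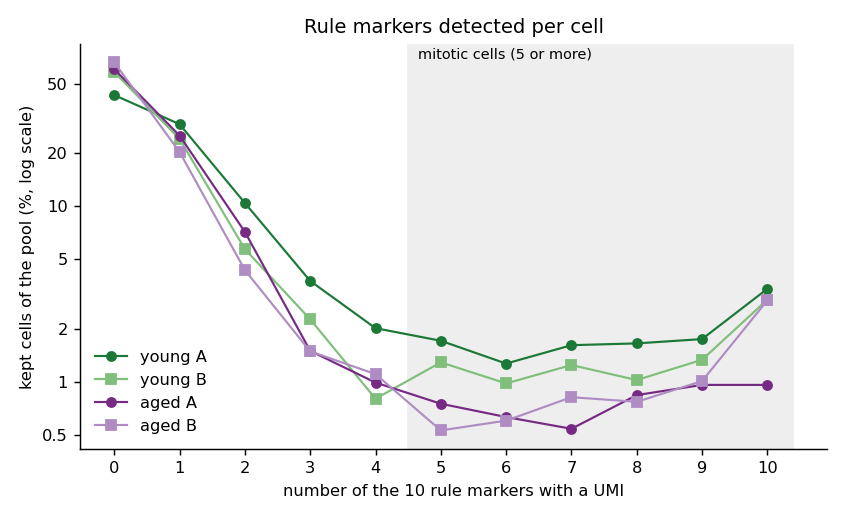
Share of the kept cells of each pool (percent, log axis) by the number of rule genes with at least 1 UMI, with mitotic cells in the shaded part. Circles are platform A and squares platform B. Shares fall from 0 to about 5 genes and rise again towards 10 genes, to 2.91 to 3.39% in 3 pools and to 0.962% in aged A.

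Because the rule used these genes, their levels are a description without a test. Levels are given in CPM (UMIs of a gene scaled to 1000000 UMIs summed over the mitotic or the other cells of a pool). Ube2c, the ubiquitin-conjugating enzyme of the anaphase-promoting complex, was at 522, 560, 449 and 582 CPM in the mitotic cells of young A, young B, aged A and aged B, and between 2.18 and 11.3 CPM in the other cells. Birc5 (survivin, of the chromosomal passenger complex) was at 503, 494, 442 and 625 CPM and was seen in 97.5% of the mitotic cells and 7.96% of the others. Aurka, a kinase of the spindle poles, was the gene missed most often, seen in 63.3% of the mitotic cells. The median log2 ratio over the 4 pools (with 1 CPM added) ran from 4.22 for Cdc20 to 6.43 for Hmmr, which binds hyaluronan and the spindle. These 10 genes were left out of the age tests.

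Mitotic cells held more RNA molecules per barcode. Their median was 11465, 12253, 10574 and 12659 UMIs in young A, young B, aged A and aged B, against 5853, 6062, 5596 and 6526 UMIs in the other cells, a ratio of 1.89 to 2.02. They held a median of 3403, 3166, 3344 and 3289 genes against 2215, 1999, 2256 and 2108. Mitochondrial UMIs took 2.33 to 2.84% of a mitotic cell and 2.78 to 3.35% of another cell, and ribosomal protein genes took 24.7 to 31.0% against 29.0 to 37.0%. A doublet caller marked 7.58 to 10.6% of the mitotic cells against 1.32 to 3.52% of the others. The rule needs UMIs for 5 or more genes, which deep barcodes reach more readily. With every cell thinned to 3000 UMIs it took 6.63%, 5.01%, 2.60% and 4.31% of young A, young B, aged A and aged B. Unthinned it took 11.4%, 8.82%, 4.69% and 6.64%. The part of the rule in the depth of mitotic cells was not tested. Depth also set an upper border, since 640 barcodes were dropped for too many UMIs and 339 of them held 5 or more rule genes.

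Outside the rule, the genes highest in mitotic cells included cyclins, kinesins and kinases of mitosis. Of 3137 genes at 50 CPM or more in either class, 201 had a median log2 ratio above 1, 91 above 2, and 62 below -1. The leading genes were Fam64a (5.47), Cdkn3 (a phosphatase acting on Cdk1, 5.28), Ccnb2 (cyclin B2, 5.20), Prc1 (which bundles the central spindle, 5.10), Ccna2 (cyclin A2, 4.99), Cdca3 (4.95), Plk1 (polo-like kinase, 4.94), Ccnb1 (cyclin B1, 4.88), Kif11 (the motor that separates spindle poles, 4.85) and Mki67 (4.82). Others of the 20 highest were Kif2c, Neil3 (a DNA glycosylase), Kif20a, Casc5, Ckap2l, Aurkb, Cenpe, Nuf2 and Mxd3 (a transcription factor of the Myc network), with ratios of 4.81 to 4.45. Ccnb1 was at 197, 195, 239 and 214 CPM in the mitotic cells of young A, young B, aged A and aged B and at 9.76, 4.99, 8.07 and 4.35 CPM in the other cells. Mki67 was at 208, 201, 205 and 247 CPM against 10.2, 5.56, 6.97 and 4.22 CPM.

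Of the symbols listed for mitosis outside the rule, 85 are in the files, and 84 of them were higher in the mitotic cells of all 4 pools, with a median log2 ratio of 3.47. By role, the median ratio was 3.99 over 12 kinetochore genes (Nuf2 4.47, Spc25 4.03), 3.99 over 13 genes of the spindle checkpoint and the passenger complex (Aurkb 4.55, Bub1 4.19), 3.76 over 25 genes of the spindle and cytokinesis (Aspm 4.38, Cep55 4.06), 3.31 over 14 genes of mitotic entry (Foxm1 3.26, Cks2 3.24) and 2.76 over 13 genes of chromosome structure (the condensin subunit Ncapg 3.79, Hmgb2 3.06). The list of anaphase and mitotic exit was lower at 1.69, and its gene Pttg1 (securin) was the exception to the 84, with -0.09. Histone genes of the Hist1 cluster, which are on no list, were spread widely, with Hist1h2al at 3.64, Hist1h2ap at 3.58, Hist1h1b at 3.38, Hist1h4i at 2.48, Hist1h1e at 1.58, Hist1h1c at -0.20 and Hist1h2bc at -0.88. Genes of DNA repair had a median of 1.32 over 16 genes (Brca1 2.18).

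S phase genes were also higher, but less so, with a median of 1.17 over 35 genes and 31 of them higher in all 4 pools. Rrm2 (ribonucleotide reductase, 2.79) and Tk1 (thymidine kinase, 2.92) led, and Mcm5 and Mcm6 of the replicative helicase were at 0.93 and 0.43. The share of mitotic cells that also held 5 or more of 10 early S phase genes was 46.6%, 54.0%, 41.7% and 46.0% in young A, young B, aged A and aged B, 575 of 1222 in all. With every cell thinned to 3000 UMIs it was 7.26%, 8.33%, 5.26% and 6.52%, against 2.85%, 1.90%, 1.83% and 0.981% of the other cells.

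Mitotic cells differed among themselves by how many rule genes they held. In cells with 5 or 6 rule genes, the 35 S phase genes summed to between 5223 and 6032 CPM over the 4 pools and Ccnb1 was at 30.4 to 59.0 CPM. In cells with 7 or 8 they summed to between 3931 and 4557 CPM with Ccnb1 at 75.6 to 149 CPM, and in cells with 9 or 10 to between 2218 and 2399 CPM with Ccnb1 at 306 to 410 CPM. The order was the same in each of the 4 pools. Plk1 was, over the same bins, at 16.0 to 23.4 CPM, at 41.0 to 82.1 CPM and at 141 to 174 CPM. The median depth of a pool was 9670 to 12775 UMIs in cells with 5 or 6 genes and 11265 to 13115 UMIs in cells with 9 or 10, and its part in this order was not tested. The label of mitotic cells describes a gene program, since neither DNA content nor mitotic figures were measured, and cells near the threshold held more S phase transcripts than cells with 9 or 10 rule genes.

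Genes lower in mitotic cells included marks of HSCs. The median log2 ratio of 10 HSC genes was -0.91, and 9 of them were lower in all 4 pools. Procr (EPCR, a surface mark of HSCs) was among the 10 lowest genes, at -2.20, with 30.9, 44.5, 32.4 and 33.6 CPM in the mitotic cells of young A, young B, aged A and aged B against 110, 129, 199 and 220 CPM in the other cells. Mllt3 (-1.77), Mecom (-0.93) and Hlf (-0.82), regulators of HSC self-renewal, were also lower. The other lowest genes were Jchain (-4.07), Igkc (-3.17), Ighm (-2.67), Cldn5 (-2.67), Meg3 (-2.57), Cd74 (-2.44), Prg2 (-2.44), Sult1a1 (-2.43) and Tcp11l2 (-2.32). Of these, Jchain, Igkc and Ighm are immunoglobulin genes. Prg2 was higher in the mitotic cells of aged A (1.73) and lower in those of young A, young B and aged B. Immediate early genes were lower by a median of -1.28 (Junb -1.66, Fos -1.44), and Ccnd2 and Ccnd1, the D cyclins of G1, were at -1.36 and -1.30, while Ccnd3 was at 0.15 and Cdk6 at 0.80. Interferon-induced genes had a median of -0.62 (Ifit1 -1.96). The medians of the lineage lists were 1.26 for erythroid, 0.82 for mast cell and basophil, 0.66 for neutrophil, 0.39 for megakaryocyte and -0.02 for early lymphoid genes.

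**Figure D3:**
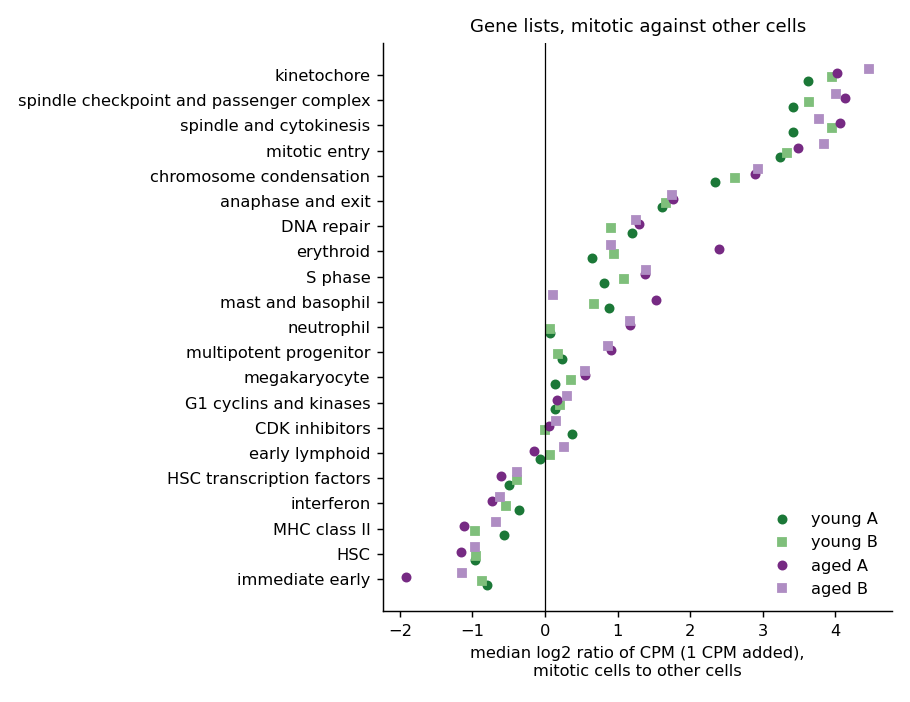
Median over each gene list of the log2 ratio of CPM between the mitotic and the other cells of a pool (1 CPM added), a point per pool, circles for platform A and squares for platform B. The mitotic lists lie above 1.5 in every pool and the HSC and immediate early lists below 0, and aged A stands apart for the erythroid and immediate early lists.

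The first comparison asked whether the mitotic share differs with age. It was 11.4% (592 cells) in young A, 8.82% (198 cells) in young B, 4.69% (156 cells) in aged A and 6.64% (276 cells) in aged B. Both aged pools lay below both young pools, by a mean of 4.45 percentage points (10.1% against 5.67%). The exact two-sided permutation test gave p = 0.33, the smallest that 2 pools against 2 allow. The difference was -6.72 points on platform A and -2.18 points on platform B. Cells in S phase that were not mitotic (5 or more of 10 S phase genes) also lay lower in both aged pools, at 11.9% and 11.3% of young and 6.04% and 6.62% of aged cells. The number of mitotic cells per such S phase cell did not separate the ages, at 0.956 and 0.780 in young A and B and 0.776 and 1.004 in aged A and B.

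The mitotic share depended on which marks a cell carried. For this, every cell was thinned to 3000 UMIs and called HSC-marked with UMIs for 3 or more of 10 HSC genes, lineage-marked with 3 or more genes of an erythroid, megakaryocyte, neutrophil, mast cell and basophil, or early lymphoid list but not of the HSC list, and otherwise neither. In HSC-marked cells, 2.65% (52 of 1965) were mitotic in young A, 2.91% (24 of 824) in young B, 1.59% (35 of 2204) in aged A and 2.09% (53 of 2539) in aged B. In cells with neither mark the share was 15.6%, 10.7%, 8.99% and 11.5%. In lineage-marked cells it was 19.9%, 19.2%, 16.9% and 20.2%. The share in lineage-marked cells was thus 6.59 to 10.6 times that in HSC-marked cells of the same pool, in each of the 4 pools, and since the mitotic rule and the marks both read the cell's RNA, this is a description without a test. Without thinning the gap was smaller, at 8.65%, 7.24%, 3.93% and 5.37% of HSC-marked and 21.3%, 19.5%, 13.7% and 22.3% of lineage-marked cells in young A, young B, aged A and aged B.

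With age, the mitotic share of HSC-marked cells was lower by 0.942 percentage points, with both aged pools below both young pools (exact permutation test, two-sided, p = 0.33, the smallest possible). The ages overlapped for the other cells: the mean difference was -1.04 points in lineage-marked cells (p = 1.0, exact permutation test) and -2.94 points in cells with neither mark (p = 0.67, exact permutation test). The lineage-marked difference turned to 1.98 points when 2 genes were enough for a mark. With Slamf1, Procr and Vwf left out of the lists, an alternative chosen after seeing the data, the overlap ended, and both aged pools lay below both young pools in lineage-marked cells (by a mean of -2.36 points) and in cells with neither mark (-4.12 points), each with p = 0.33 in the exact permutation test, the smallest possible. HSC-marked cells made up 37.9% and 37.6% of young and 69.9% and 61.2% of aged cells. Weighting the 3 classes of each pool to the class mix of all kept cells, an alternative chosen after seeing the data, gave mitotic shares of 9.53% and 7.84% in young A and B and 6.24% and 7.81% in aged A and B, a difference of -1.66 points where the unweighted one was -4.45.

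**Figure D4:**
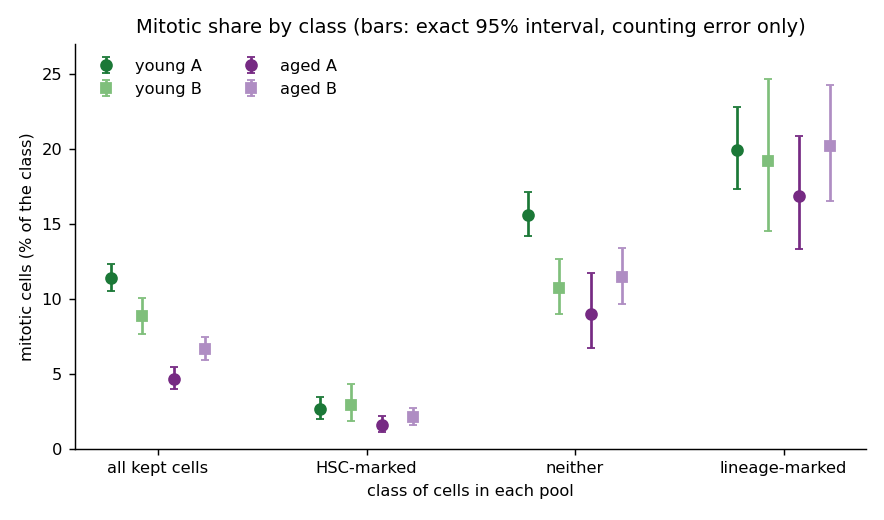
Mitotic cells as percent of all kept cells and of HSC-marked, neither-marked and lineage-marked cells, a point per pool with its exact 95% interval for counting error. HSC-marked cells lie between 1.59 and 2.91% and lineage-marked cells between 16.9 and 20.2%, and the ages separate among all kept and HSC-marked cells.

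The marks of mitotic cells were then compared between ages. Here each mark was called from its own list alone, so that a megakaryocyte-marked or other lineage-marked cell could also be HSC-marked. HSC-marked cells were 8.78% and 12.5% of the mitotic cells of young A and B and 23.03% and 19.2% of those of aged A and B, a difference of 10.5 percentage points. Among the other cells, 41.6% and 39.96% of the young and 72.3% and 64.2% of the aged were HSC-marked. Megakaryocyte-marked cells were 10.1% and 7.81% of young and 23.03% and 30.8% of aged mitotic cells, a difference of 17.9 points. Among the other cells, 6.26% and 3.90% of the young and 22.0% and 18.6% of the aged were megakaryocyte-marked. In both classes the aged pools lay above the young pools, and p was 0.33 (exact permutation test), the smallest possible. Slamf1, Procr and Vwf are genes that the study itself names for age, and without them the differences were 7.70 and 14.0 points.

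Erythroid-marked cells were 7.43% and 7.81% of young and 15.1% and 4.71% of aged mitotic cells, so that the platforms went opposite ways. Neutrophil-marked cells (11.7% and 9.90%, then 13.8% and 4.71%) and mast cell and basophil-marked cells (6.25% and 6.25%, then 7.24% and 1.09%) also overlapped between the ages. Early lymphoid-marked cells numbered 7 and 4 in the young and 0 and 2 in the aged pools, and 0 of 152 cells in aged A allows a share of up to 1.97%. The same call with 10 B cell genes marked no mitotic cell in any pool, and 0, 1, 6 and 3 of the other cells of young A, young B, aged A and aged B.

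The next comparison asked which genes differ with age within mitotic cells. Counts were summed over the mitotic cells of each pool (6416433, 2380396, 1574029 and 3423282 UMIs in young A, young B, aged A and aged B) and tested with edgeR's quasi-likelihood test with platform as a block. Of 10177 genes tested, 98 passed an adjusted p of 0.05 (0.963%), 70 higher in aged cells (0.688%) and 28 lower (0.275%). All 98 moved the same way on both platforms, and in 94 the CPM of the aged and young pools did not overlap, as in 23.1% of all genes tested. In the other cells of the same pools 486 of 13425 genes passed (3.62%). Of the 98 genes, 85 passed there too (86.7% of the mitotic and 17.5% of the other calls), and 97 had the same sign. The pools are the same in both, so these are not independent. With 4 pools and the block, 1 residual degree of freedom was left per gene. No gene passed without the block (274 at an unadjusted p under 0.05). With 1 pool left out, age and the block together would leave no residual degree of freedom. Such a fit cannot hold the block and has 1 pool at 1 of the ages, so its count of genes passing is not given.

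No difference with age was detectable in the genes of mitosis at this depth. Of the 85 listed genes, none passed the test (edgeR; none at an unadjusted p under 0.05, and none by DESeq2 at either level), their median log2 fold change was 0.02, as in all genes (0.02), and 83 lay within 0.5 of 0. The extremes were -0.44 for Kif23 and 0.54 for Kif18a. The always-named genes Ccnb1 (0.16 ± 0.24, SE), Ccnb2 (-0.10 ± 0.26), Mki67 (0.09 ± 0.24), Plk1 (0.03 ± 0.27) and Cdk1 (-0.08 ± 0.26) all had an adjusted p of 0.999 (edgeR). The signs of these 5 genes turned under some alternatives. Cdk1 was at 354, 348, 289 and 406 CPM in young A, young B, aged A and aged B, where the ages overlap. The 35 S phase genes had a median of -0.17, 31 of them below 0, and none passed. The rule selects cells by this program, which bears on its level at both ages. Of the CDK inhibitors and G1 genes, Cdkn1a (p21, 0.14), Cdkn1b (p27, -0.41), Cdkn1c (p57, 0.47), Ccnd1 (0.82), Ccnd2 (-0.17), Ccnd3 (0.06) and Cdk6 (0.04) did not pass. Cdkn2c (p18) was at 78.5 and 10.9 CPM in young A and B and 138 and 48.8 CPM in aged A and B, and its log2 fold change of 1.32 had an adjusted p of 0.0729 with edgeR and ran from 0.21 to 2.85 with 1 pool left out.

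Some of the genes that the study names for HSC aging rose in mitotic cells. Of 28 tested genes on a list of 30 age genes, 14 passed higher and 2 lower (median log2 fold change 1.55), against 0.688% and 0.275% of all genes. That list was drawn by the study from these same cells, so its direction is not independent evidence. Nupr1, a stress-induced chromatin protein (chromosome 7, 126623249 to 126630861, GRCm38), was at 12.5 and 12.2 CPM in the mitotic cells of young A and B and at 139 and 237 CPM in aged A and B. The aged pools lay far above the young ones, with a log2 fold change of 3.80 ± 0.28 (SE, adjusted p 2.94e-05, edgeR). Clu (clusterin, a secreted chaperone) was at 2.96 and 7.56 CPM in young and 58.4 and 130 CPM in aged pools (4.14 ± 0.28, adjusted p 2.52e-05, edgeR). Vwf, the platelet adhesion protein, had 5.30 and 6.30 CPM in the young pools against 44.5 and 61.9 CPM in the aged (3.11 ± 0.29, adjusted p 0.000145, edgeR). Slamf1 (CD150, a surface mark of HSCs) was at 6.55 and 7.56 CPM in young and 22.9 and 28.6 CPM in aged pools (1.80, adjusted p 0.0162, edgeR). Gstm2 (a glutathione transferase, 3.45) and Tm4sf1 (4.995) also rose. With 1 pool left out their log2 fold changes ran from 2.66 to 4.58 (Gstm2) and from 4.70 to 8.60 (Tm4sf1).

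Of 9 tested HSC genes, Slamf1 was the one called, against 0.963% of all genes in either direction. Procr (-0.22), Hlf (-0.07) and Mecom (0.42) did not pass. Procr was level between ages in mitotic cells at 30.9 and 44.5 against 32.4 and 33.6 CPM. In the other cells Procr had a log2 fold change of 0.76 (adjusted p 0.0865, edgeR).

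The 10 largest rises were Rcvrn, Rbpjl, Matn4, Cldn5, Igha, Tm4sf1, Clca3a1, Hoxb8, Plscr2 and Wwtr1, genes of low count in young mitotic cells. Rcvrn (recoverin) and Rbpjl had 0 UMIs in both young pools and 66 and 25 in the aged ones, at least 38.7-fold and 14.7-fold higher against a floor of 3 UMIs over the young group. Matn4 (a matrilin of the extracellular matrix) had 3 UMIs in young and 199 in aged mitotic cells, a ratio of 117 (exact 95% interval 39.4 to 571, which like those that follow covers counting error only), and its UMIs came from 26 cells of aged A and 83 of aged B. Cldn5 (a tight-junction claudin) had 3 and 82 UMIs (ratio 48.1, interval 15.9 to 238). Hoxb8 had 2 and 31 UMIs (ratio 27.3, interval 6.94 to 235), and Wwtr1 (TAZ) had 2 and 49 UMIs (ratio 43.1, interval 11.3 to 366). Plscr2 was at 2.81 and 0.840 CPM in young and 36.2 and 94.1 CPM in aged pools, and Clca3a1 at 1.25 and 1.26 CPM and at 34.9 and 39.4 CPM. With DESeq2, Rcvrn (adjusted p 0.9999), Hoxb8 (0.312) and Wwtr1 (0.214) did not pass. Matn4, Cldn5, Igha, Tm4sf1, Clca3a1 and Plscr2 did.

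Of 6 tested genes of antigen presentation by MHC class II, 3 were called higher, against 0.688% of all genes. H2-Eb1 was at 8.73 and 17.2 CPM in young and 33.0 and 84.1 CPM in aged mitotic cells (log2 fold change 2.06), H2-Aa rose by 1.72 and Cd74 (the invariant chain) by 1.38. Without aged B the values were 1.19, 0.83 and 0.76, and Cd74 lost its call with 4 or 6 rule genes as the threshold or without called doublets (H2-Aa with 4). Without the HSC-marked mitotic cells, H2-Aa (1.79, adjusted p 0.0968, edgeR) and Cd74 (1.43, adjusted p 0.135) did not pass and H2-Eb1 (2.11) did. None of 10 MHC class I genes passed. Of 9 interferon-induced genes Ifi27l2a passed, lower in aged cells (-1.65), against 0.275% of all genes called lower.

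Of 6 tested early lymphoid genes 2 fell, against 0.275% of all genes. Dntt, which adds nucleotides during antigen receptor rearrangement, was at 17.3 and 41.2 CPM in young and 0 and 1.46 CPM in aged mitotic cells (log2 fold change -5.11 ± 0.51, adjusted p 0.000206, edgeR). The 5 highest cells held 75.7% and 89.8% of its UMIs in young A and B, and without them the level was 4.21 and 4.20 CPM. Ltb (lymphotoxin beta) fell by 1.09 on the log2 scale. Of 4 multipotent progenitor genes 3 were called lower, against the same 0.275%: Cd34 was at 301, 241, 159 and 97.6 CPM in young A, young B, aged A and aged B (-1.16, adjusted p 0.0435, edgeR), Cd48 at 133, 136, 78.8 and 31.5 CPM (-1.47, adjusted p 0.0331, edgeR) and Flt3 at 40.2, 11.8, 9.53 and 3.21 CPM (-2.04). Without young A the Flt3 value was -1.17, and without aged A it was -2.94. Flt3 protein was part of the sort gate. Without the HSC-marked mitotic cells, an alternative added after seeing the data, Cd34 (-1.06, adjusted p 0.134, edgeR), Cd48 (-1.21, adjusted p 0.223), Ltb (-0.98, adjusted p 0.160), Flt3 (-1.97, adjusted p 0.0502) and Slamf1 (1.75, adjusted p 0.0785) no longer passed, while Nupr1 (3.70), Clu (4.15), Vwf (3.21) and Dntt (-4.93) did. Cd34 and Ltb also lost their call without cells called doublets (adjusted p 0.0629 and 0.0584, edgeR). With 4 or more rule genes as the threshold, Cd34 (adjusted p 0.0809, edgeR), Cd48 (0.105) and Ltb (0.0616) did not pass. None of Cd34 (adjusted p 0.0870, DESeq2), Cd48 (0.0697), Ltb (0.528), Flt3 (0.264) and Slamf1 (0.395) passed with DESeq2.

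The other large falls were Gimap7, Slc16a11, Ccl5, Ccl6, Rgs7bp, Socs2, Hmga2, Ebi3 and Prss34. Socs2, an inhibitor of cytokine signaling, was at 14.8 and 25.6 CPM in young and 4.45 and 1.46 CPM in aged mitotic cells (-3.01). Hmga2, a chromatin protein tied to HSC self-renewal, was at 17.1 and 13.9 CPM in young and 4.45 and 2.04 CPM in aged mitotic cells (-2.39). Prss34, a protease of basophils and mast cells, was at 2538 and 2918 CPM in young and 1166 and 372 CPM in aged pools (-2.10), and its 5 highest cells held 37.8%, 79.5%, 94.3% and 97.7% of its UMIs in young A, young B, aged A and aged B. Without the lineage-marked mitotic cells its log2 fold change was -0.93 and did not pass. Gimap7 had 67 UMIs in young and 2 in aged cells, an aged to young ratio of 0.0525 (exact 95% interval 0.00624 to 0.197, counting error only). Slc16a11 (-3.34), Ccl5 (-3.30), Ccl6 (-3.16), Rgs7bp (-3.12) and Ebi3 (-2.19) completed the 10. Ccl5 was at -1.32 without young B. Among cells with 4 or more of the rule genes, Ccl5 (-2.36), Ccl6 (-2.70) and Rgs7bp (-3.27) did not pass. Without the HSC-marked mitotic cells, Hmga2 (-2.34, adjusted p 0.0865, edgeR), Slc16a11 (-3.34, 0.0595), Ccl5 (-3.72, 0.0517) and Ccl6 (-3.27, 0.0684) did not pass. Nor did Rgs7bp (-3.23, adjusted p 0.0900, edgeR) and Prss34 (-1.87, 0.143), while Gimap7 (-5.14), Socs2 (-3.78) and Ebi3 (-2.12) passed. With DESeq2, Gimap7 (adjusted p 0.202), Ccl5 (0.133), Ccl6 (0.920) and Rgs7bp (0.9999) did not pass. Socs2 (adjusted p 0.0683, DESeq2), Hmga2 (0.375) and Prss34 (0.771) did not either, while Slc16a11 and Ebi3 passed.

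Of 9 tested megakaryocyte genes, 3 were called higher, against 0.688% of all genes, and all 9 lay above 0 (median 1.07). Besides Vwf these were Sdpr (cavin 2, at 18.9 and 25.2 against 105 and 175 CPM, 2.58) and Pf4. Pf4, platelet factor 4 (chromosome 5, 90772435 to 90773383, GRCm38), was at 183 and 205 CPM in the mitotic cells of young A and B and at 643 and 932 CPM in aged A and B (1.95 ± 0.27, adjusted p 0.00316, edgeR). In the other cells it was at 165 and 167 CPM in young and 135 and 194 CPM in aged pools (-0.08), so that the ages overlapped. The difference between the classes was 2.05 on the log2 scale and passed (class by age term, edgeR, adjusted p 5.64e-52), and it was 2.00 to 2.04 with any 1 pool left out. The 5 highest cells held 46.1%, 80.9%, 65.1% and 49.2% of the Pf4 UMIs of young A, young B, aged A and aged B, and without these 5 the level was 98.7, 39.1, 224 and 473 CPM, where both aged pools still lay above both young pools. With an equal number of mitotic cells per pool the log2 fold change was 1.16 and did not pass. The megakaryocyte-marked class, unlike the lineage-marked one, could hold HSC-marked cells. It held 659 and 719 cells that were not mitotic in aged A and B, where the lineage-marked class held 335 and 352. Within megakaryocyte-marked cells, which Pf4, Vwf and Sdpr themselves help to define, Pf4 was at 1389 and 1977 CPM in young and 2667 and 2259 CPM in aged mitotic cells. In megakaryocyte-marked cells that were not mitotic it was at 959 and 1989 CPM in young and 431 and 678 CPM in aged pools. In HSC-marked mitotic cells the ages overlapped, at 214 and 21.0 CPM in young and 166 and 1018 CPM in aged pools. Mitotic cells with neither mark held 53.9 and 53.8 CPM in young and 67.9 and 302 CPM in aged pools.

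**Figure D5:**
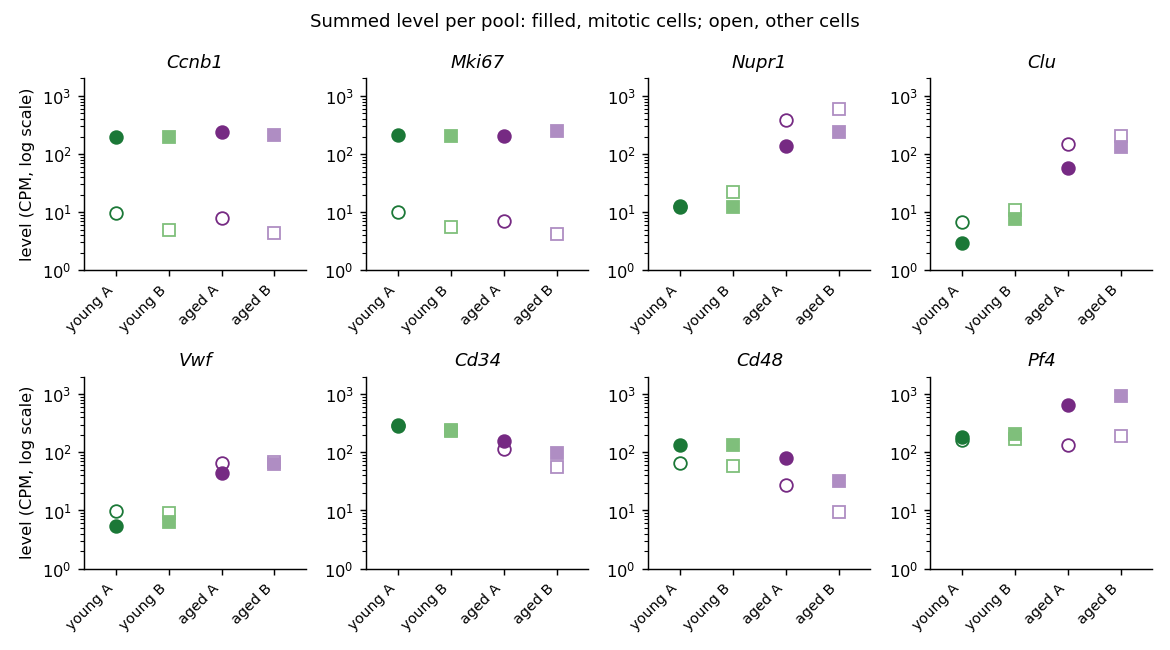
CPM (log axis) of 8 genes in each pool, filled for mitotic cells and open for other cells, circles for platform A and squares for platform B. Ccnb1 and Mki67 differ little between ages in mitotic cells, though for Ccnb1 both aged pools lie above both young pools. Nupr1, Clu and Vwf are higher and Cd34 and Cd48 lower in the aged pools of both classes. Pf4 is higher in the mitotic cells of the aged pools only.

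Igha was at 5.61 and 0.420 CPM in young A and B and 203 and 9.35 CPM in aged A and B, and Jchain at 6.70, 0.420, 81.3 and 2.92 CPM, where the ages overlap. Igkc was at 53.9, 29.0, 667 and 60.5 CPM. All 3 were called higher (log2 fold changes 5.01, 3.44 and 2.37), but without aged A the value was 1.52 for Igha and 0.61 for Igkc, and that for Jchain turned to -0.36. With DESeq2, Igha and Jchain passed and Igkc (adjusted p 0.9999) did not. The 10 plasma cell genes summed to 155, 123, 1178 and 150 CPM in the mitotic cells of young A, young B, aged A and aged B and to 765, 621, 5434 and 2613 CPM in the other cells, with Igkc the most abundant and none of the 10 at 0. In aged A, 130 of 156 mitotic cells held Igha, with at most 7 UMIs in a cell. The part of plasma cell RNA in these calls was not tested. Of other cell types, the B cell list summed to 38.8 to 61.8 CPM with Ms4a1 at 0, the macrophage list to 264 to 430 CPM, mostly Lyz2, with Mrc1 at 0, and the T and NK cell list to 207 to 389 CPM, mostly Nkg7, with Cd8a at 0. The stroma and endothelium list summed to 31.5 to 72.4 CPM, mostly Pecam1, with Lepr and Bglap at 0, and the mature red cell list to 138, 1126, 823 and 42.4 CPM, of which 1 cell of young B held 879 of 901 Hba-a1 UMIs. Dusp1, an immediate early gene, was called higher (1.46), at 36.6 and 9.24 CPM in young and 121 and 21.6 CPM in aged pools, and without aged A it was at -0.03. It did not pass with DESeq2 (adjusted p 0.264).

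The last comparison asked where the age difference itself differs between mitotic and other cells of the same pools. The class by age term of edgeR, with pool as a block, passed for 225 of 12702 genes (1.77%), 151 with a more positive age difference in mitotic cells and 74 with a more negative one. Of the 225, 41 were on the lists of mitosis and S phase, all positive. The rule splits cells by part of this program, so these 41 are a description, and what the rule contributes to them was not tested. Of the remaining 184, 110 were positive and 74 negative. These 184 still include genes of replication and the cycle that are on no list, such as Pole2 (0.87), Cenpk (0.83) and Dnmt1 (0.79), chosen after their values were seen. The lineage lists went different ways. Of 10 tested erythroid genes 6, and of 9 neutrophil genes 5, passed with a more positive difference, against 1 negative in the neutrophil list. Aged A stood apart in both: the erythroid genes summed to 547, 420, 1006 and 459 CPM in the mitotic cells of young A, young B, aged A and aged B, and the neutrophil genes to 1256, 1288, 2158 and 1190 CPM. The part of that pool in these counts was not tested. Of 10 mast cell and basophil genes 3 passed, all negative (Prss34 -0.88, Fcer1a -0.78, Mcpt8 -0.71), while the median term of the list was positive at 0.44, and of 8 early lymphoid genes none passed. Car1 (carbonic anhydrase of early erythroid cells, chosen after its values were seen) was at 241, 164, 514 and 197 CPM in the mitotic cells of young A, young B, aged A and aged B, and at 153, 85.2, 80.1 and 33.5 CPM in the other cells (term 1.84).

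Among the negative terms were immediate early genes, 6 of 10 of them against 1.77% of all genes in either direction, and Cdkn1a. In the other cells the immediate early genes summed to 1299, 453, 4367 and 1010 CPM in young A, young B, aged A and aged B, with aged A apart, and the part of that pool in the count was not tested. Cdkn1a was at 7.95, 17.2, 12.1 and 15.5 CPM in the mitotic cells of young A, young B, aged A and aged B, where the ages overlap, and at 7.29, 8.84, 62.4 and 16.3 CPM in the other cells (term -1.53, adjusted p 2.74e-06, edgeR). The value for aged A stood apart, and without that pool the term was -0.61 and did not pass. Procr (-0.98), Nupr1 (-1.03) and Selp (P-selectin, -1.59, chosen after its values were seen) had smaller rises or none in mitotic cells than in the others. Hmga2 fell more in mitotic cells (term -1.68).

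The largest positive terms were those of Prg3 (10.57), Prg2 (5.51), Spp1 (3.96), Xlr (3.03) and Ermap (2.48). Prg2 and Prg3 encode major basic proteins of eosinophil granules. In aged A, 183 of the 191 Prg2 UMIs of mitotic cells and 13 of the 16 Prg3 UMIs came from 1 cell each, and without that pool the Prg2 term was 0.96. The young mitotic cells held no Prg3 UMI and those of aged B held 1, and its term was 10.3 to 12.1 with any 1 pool left out, not passing without aged A. The Spp1 term (osteopontin) rested on the other cells of young A, at 48.5 CPM against 0.927, 2.29 and 1.54 CPM in young B, aged A and aged B, and turned to -1.22 without that pool. Ermap, an erythroid membrane protein, was at 28.0 CPM in aged A and 1.17 to 6.23 CPM in the mitotic cells of the other pools, and its term was 0.05 without aged A. Xlr was at 0.779 and 0.420 CPM in young and 4.45 and 3.51 CPM in aged mitotic cells. The largest negative terms, Cxcl9 (-4.78), Ahr (-3.88), Gpr183 (-3.05), Tmem215 (-2.66) and Lgmn (-2.36), belong to genes of at most 7.62 CPM in mitotic cells. Gpr183, an oxysterol receptor, was at 1.25, 1.26, 3.81 and 1.75 CPM in the mitotic and 1.30, 2.92, 25.7 and 28.8 CPM in the other cells of young A, young B, aged A and aged B.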

How the data were processed

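Bone marrow HSPCs of 4 pools were captured with 10x Chromium 3′ v2 chemistry. The authors made the deposited matrices of raw UMI counts per gene and barcode with Cell Ranger 2.2.0 on mm10 (GRCm38.p4), per the submitters' processing notes. They list 28692 genes. Doublets were not removed, and calls from simulated doublets (50 nearest neighbours) were used in an alternative. The pools held 42244876, 18744814, 23725289 and 37416508 UMIs (young A, young B, aged A, aged B), and from 10 to 29 barcodes were shared by any pair of pools, none of them in mitotic cells of both.

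The members, gene lists and tests were chosen with earlier results of these data known. Counts summed per pool were tested with edgeR 4.0.16 in R 4.3.3 (TMM, filterByExpr, quasi-likelihood, Benjamini-Hochberg at 0.05), with the platform letter, by which the study also grouped its own tests, as a block. Deviations from the age means of same-lettered pools correlated at 0.480 over 10177 genes, and letter and facility are tied in the labels. P-values of the age test measure the spread between 2 pools of mice per age. Those of the class by age term compare mitotic and other sums of the same 4 pools. Neither measures how few cells hold the UMIs of a gene. Prg2, with 183 of its 191 UMIs of aged A mitotic cells in 1 cell, had an adjusted p of 2.73e-107 (class by age term, edgeR). DESeq2 1.42.0, thinning to 3000 UMIs and other alternatives are given in the closing section. Shares were compared with an exact permutation test over pools. The scripts were tested on simulated data.

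Genes were named by fixed rules: the 10 genes of the membership rule; the 10 largest called rises and falls that agreed on both platforms; up to 4 called genes per list; 22 cell cycle and HSC genes whatever their values; the 20 highest and 10 lowest ratios to other cells; and the 5 largest class by age terms of each sign. A few genes that these rules name are not reported here. Gene coordinates come from GENCODE M21 and promoters from RefSeq, both GRCm38. Cell Ranger counts reads on the transcript strand, so that overlapping genes on 1 strand can still share reads.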

Additional observations from a re-analysis of the deposited data

Results flagged for a closer look

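Genes whose age difference differed between mitotic and other cells stand out because the difference itself was tested, with the class by age term of edgeR, and 225 passed. Pf4 (term 2.05) was higher in aged mitotic cells, while the ages overlapped in the other cells, and Cdkn1a (-1.53) was highest in the other cells of aged A. Prg2 (5.51) rested on 1 mitotic cell of aged A. Prg3 (10.57) had no UMI in young mitotic cells, 16 in aged A and 1 in aged B, and its term was 10.3 to 12.1 with 1 pool left out but did not pass without aged A. Spp1 (3.96) rested on the other cells of young A. Xlr (3.03) and Ermap (2.48) were the next largest positive terms, Ermap with 1 high pool, aged A. The negative terms of Cxcl9 (-4.78), Ahr (-3.88), Gpr183 (-3.05), Tmem215 (-2.66) and Lgmn (-2.36) were of genes with few UMIs in mitotic cells. The causes of these differences were not tested.

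Marked shares of mitotic cells went opposite ways on the 2 platforms in 3 lineages, and these differences between platforms were not tested. The aged minus young difference of the erythroid-marked share was 7.70 percentage points on platform A and -3.10 on platform B. For the neutrophil-marked share it was 2.16 on A and -5.19 on B, and for the mast cell and basophil-marked share 0.987 on A and -5.16 on B. The depth contrast between the ages also turned between platforms: per the methods, young A and aged B were sequenced to fewer reads per cell than aged A and young B. The median depth of mitotic cells was 11465 UMIs in young A and 10574 in aged A, and 12253 in young B and 12659 in aged B. The part of depth in these shares was not tested.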

How the results depend on the processing

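The direction of the mitotic share by age, and of the HSC-marked and megakaryocyte-marked shares, held under every alternative run. The mitotic share differed by -3.16 to -5.74 points with any 1 pool left out, and by -2.36 points after thinning to 3000 UMIs. With the replicate block its p was 0.5, the smallest possible. The 98 genes called for age became 247 with no filter on low counts, 39 with DESeq2, 59 with 4 or more rule genes, 195 without lineage-marked mitotic cells, 3 after thinning to 3000 UMIs, 15 with equal cells per pool, 46 without HSC-marked mitotic cells, 0 with HSC-marked mitotic cells only (265 at an unadjusted p under 0.05), 0 with no replicate block, and 0 to 71 with 1 pool left out. All tested members of the 98 kept their sign in these fits and with 1 pool left out, except 3 of 98 without aged A. The 225 class by age calls became 38 after thinning, 65 with DESeq2 and 60 to 362 with 1 pool left out. The cause of these changes was not tested. With 1 pool left out, the share differences that turned ranged from -2.91 to 7.51 points (erythroid-marked), -6.07 to 3.04 (neutrophil-marked), -5.16 to 0.987 (mast cell and basophil-marked) and -2.69 to 0.617 (mitotic share of lineage-marked cells, which was 1.98 with 2 genes of a list). Log2 fold changes that turned with 1 pool left out ranged from -0.36 to 6.16 (Jchain), -0.025 to 2.66 (Dusp1), -0.45 to 0.23 (Ccnb2), -0.18 to 0.33 (Mki67), -0.47 to 0.49 (Plk1), -0.46 to 0.26 (Cdk1), -0.45 to 0.84 (Cdkn1a), -0.25 to 1.38 (Cdkn1c), -0.45 to 0.072 (Ccnd2), -0.22 to 0.30 (Ccnd3), -0.29 to 0.35 (Cdk6), -0.59 to 0.13 (Procr), -0.36 to 0.19 (Hlf) and -1.22 to 5.16 (class by age term of Spp1). In HSC-marked mitotic cells only, Ccnb1 (-0.36), Mki67 (-0.042), Plk1 (-0.10), Cdkn1c (-0.71), Ccnd1 (-0.024) and Cdk6 (-0.22) turned. After thinning, Plk1 (-0.055), Cdk1 (0.043), Ccnd3 (-0.072), Cdk6 (-0.11) and Hlf (0.12) turned. Plk1 also turned with 6 or more rule genes (-0.043), without called doublets (-0.035) and with equal cells per pool (-0.10), and Cdk6 (-0.071) and Hlf (0.024) without lineage-marked mitotic cells. Of these, Jchain, Dusp1 and the Spp1 term had passed the test. The aged A mitotic cells held the fewest UMIs (1574029), and the part of depth in these changes was not tested.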

Other observations

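The HSC-marked mitotic cells numbered 52, 24, 35 and 53 in young A, young B, aged A and aged B. In these pools they held Ccnb1 at 305, 329, 280 and 235 CPM and Mki67 at 236, 259, 275 and 228 CPM. The rule chose these cells by the mitotic program, so its presence at both ages is a description. For Ccnb1 both aged pools lay below both young pools, and for Mki67 the ages overlapped. In the same cells Nupr1 was at 18.2 and 17.5 CPM in young and 212 and 295 CPM in aged pools, and Cd48, a surface mark of progenitors, at 70.6 and 77.0 CPM in young and 5.72 and 2.89 CPM in aged pools. Both genes separate the ages. So did Mpo in these cells, at 252 and 84.0 CPM in young and 62.9 and 5.78 CPM in aged pools. Prss34 was at 1626 and 21.0 CPM in young and 54.4 and 14.4 CPM in aged pools, where the ages overlap. No gene passed the edgeR test in HSC-marked mitotic cells alone (265 at an unadjusted p under 0.05), where the fit also held shallower cells and so 37 cells of aged A.

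Since 0.963% of all genes tested were called for age in mitotic cells by edgeR, short lists with no called member say little of themselves, and their medians are given as values. The lists were 12 glycolysis genes (median log2 fold change -0.06), 6 heat shock genes (-0.24), 7 targets of p53 (-0.06) and 15 DNA repair genes (-0.13). They also included 12 HSC transcription factors (0.29), 10 erythroid genes (0.56) and 8 neutrophil genes (0.26). The median over all genes was 0.02.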
